A study of Sus scrofa with 8 samples.

Results

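The genes described here are RNA helicases of the DDX and DHX families together with the NOP, UTP, RRP and NOL nucleolar proteins and the POLR1 subunits of RNA polymerase I. They were taken by the start of their symbol in the deposited gene table, leaving out chromosomes X and Y. This gave 67 of the 25285 genes in the table, namely 26 DDX, 13 DHX, 6 NOP, 6 UTP, 6 RRP, 5 NOL and 5 POLR1 genes. The rule left out 4 entries on X or Y, and no member symbol was repeated. Of the table's rows, 9011 carry no symbol, so family members without one are not among the 67.

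RNA was sequenced from primary skeletal muscle cells of LYD pigs grown in culture. Libraries came from undifferentiated females, undifferentiated males, differentiated females and differentiated males, with 2 in each of these 4 groups, and the labels name no other treatment, age or allele. Values are FPKM, sequenced fragments divided by transcript length and library size, as deposited, with gene positions on Sscrofa10.2. Library values below are given in the order female replicate 1, female replicate 2, male replicate 1, male replicate 2. Whether replicates are separate animals is not labelled, so each p-value covers no more than the spread among these 8 libraries.

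Ribosomes are built in the nucleolus. RNA polymerase I transcribes a long precursor, small nucleolar ribonucleoproteins (snoRNPs) guide its modification, and a large assembly called the small subunit processome folds and cuts it, while other factors shape the large subunit. DEAD-box (DDX) and DEAH-box (DHX) proteins use ATP to remodel RNA and its proteins, and besides ribosome assembly they serve in splicing, export, translation and decay. In muscle, growth of the fibre depends in part on the making of new ribosomes, and proliferating myoblasts need ribosomes for each division.

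The read depth is not known. Estimated from the steps of low values, undifferentiated libraries were 1.68 to 2.27 times as deep as the shallowest library, differentiated female replicate 1, and the remaining differentiated ones 1.27 to 1.63 times. Of the 6 muscle markers in the table (MYOD1, MYOG, DES, MYH3, ACTA1 and CKM), 5 rose in differentiated libraries and MYOD1 fell. ACTA1 and CKM, at means of 0.65 and 0.0304 FPKM undifferentiated, were high enough to be tested only through the differentiated libraries. Their calls are therefore no support. Their summed level was 420 to 737 FPKM undifferentiated and 9619 to 13758 FPKM differentiated, and PAX7 and MYF5 were not among the table's symbols. Summed fibroblast markers were at 107 to 320 FPKM undifferentiated and 430 to 1121 FPKM differentiated, with 2 of 4 tested rising. Pericyte and smooth muscle markers had sums of 6.6 to 13.5 and 11.5 to 57.1 FPKM. In differentiated male replicate 1 the pericyte marker PDGFRB was at 46.7 FPKM, against 9.58, 11.6 and 18.1 FPKM in the other differentiated libraries. The fibroblast marker COL1A1 was at 783 FPKM there, against 165, 178 and 499 FPKM, while COL3A1 at 312 FPKM was close to the 296, 247 and 307 FPKM of the others. The sums of the endothelial, immune, Schwann cell and adipocyte lists reached at most 7.53, 4.57, 7.21 and 1.69 FPKM in any library. The part of these cells in the results below was not tested.

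The first question was how the members differed between the states. In differentiated cultures, 32 of the 63 tested members fell, 3 rose and 28 were not called. The falls took in RNA polymerase I subunits, most of the small subunit processome, large subunit factors such as RRP1B and DDX54, and the splicing helicases DHX15 and DDX39A. The 3 that rose were DHX32, NOL3 and DDX60, the last of which passed the filter on low values only through the differentiated state, so that its call supports nothing. Members were tested when their mean over the 8 libraries reached 1 FPKM, with limma on log2(FPKM + 1) and 4 groups, and were called at a Benjamini-Hochberg adjusted p under 0.05 over all 12963 tested genes. "Rose" and "fell" are used only for called genes. On this scale the change of a gene at low level is understated.

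The members that fell were 50.8% of those tested, where 31.9% of all tested genes fell. The members that rose, DDX60 included, were 4.76%, where 18% of all tested genes rose. The median log2 fold change, differentiated minus undifferentiated, was -0.41 for the members and -0.18 for all tested genes. It lay below 0 for 55 members, or 87.3%, against 59.8% of all tested genes. For 35 members, or 55.6%, all 4 differentiated libraries lay below all 4 undifferentiated ones, which held for 30.2% of all tested genes. The reverse held for 3 members, and for 17.1% of all tested genes.

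FPKM are shares of a library, and in bulk RNA fewer cells of a type and less RNA per cell cannot be told apart. Median-ratio scaling moved the median of all tested genes by 0.201 on the log2 scale, to 0.02. Under it, 22 of the 63 tested members fell and 7 rose, where 22.5% of all tested genes fell and 24.8% rose. All 22 falls and 3 of the rises were among the calls given above, and the member median was -0.21. The 4 further rises were DDX17, DDX6, DHX36 and RRP8. Falls that were no longer called are named with each gene group. An identifier table gave 14 further symbols of these families to rows that carry none, and 12 of them were tested. With FPKM as deposited 4 of the 12 fell (DDX24, DDX27, DHX57 and NOL12) and 0 rose by limma, a share of falls near the 31.9% of all tested genes.

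**Figure D1:**
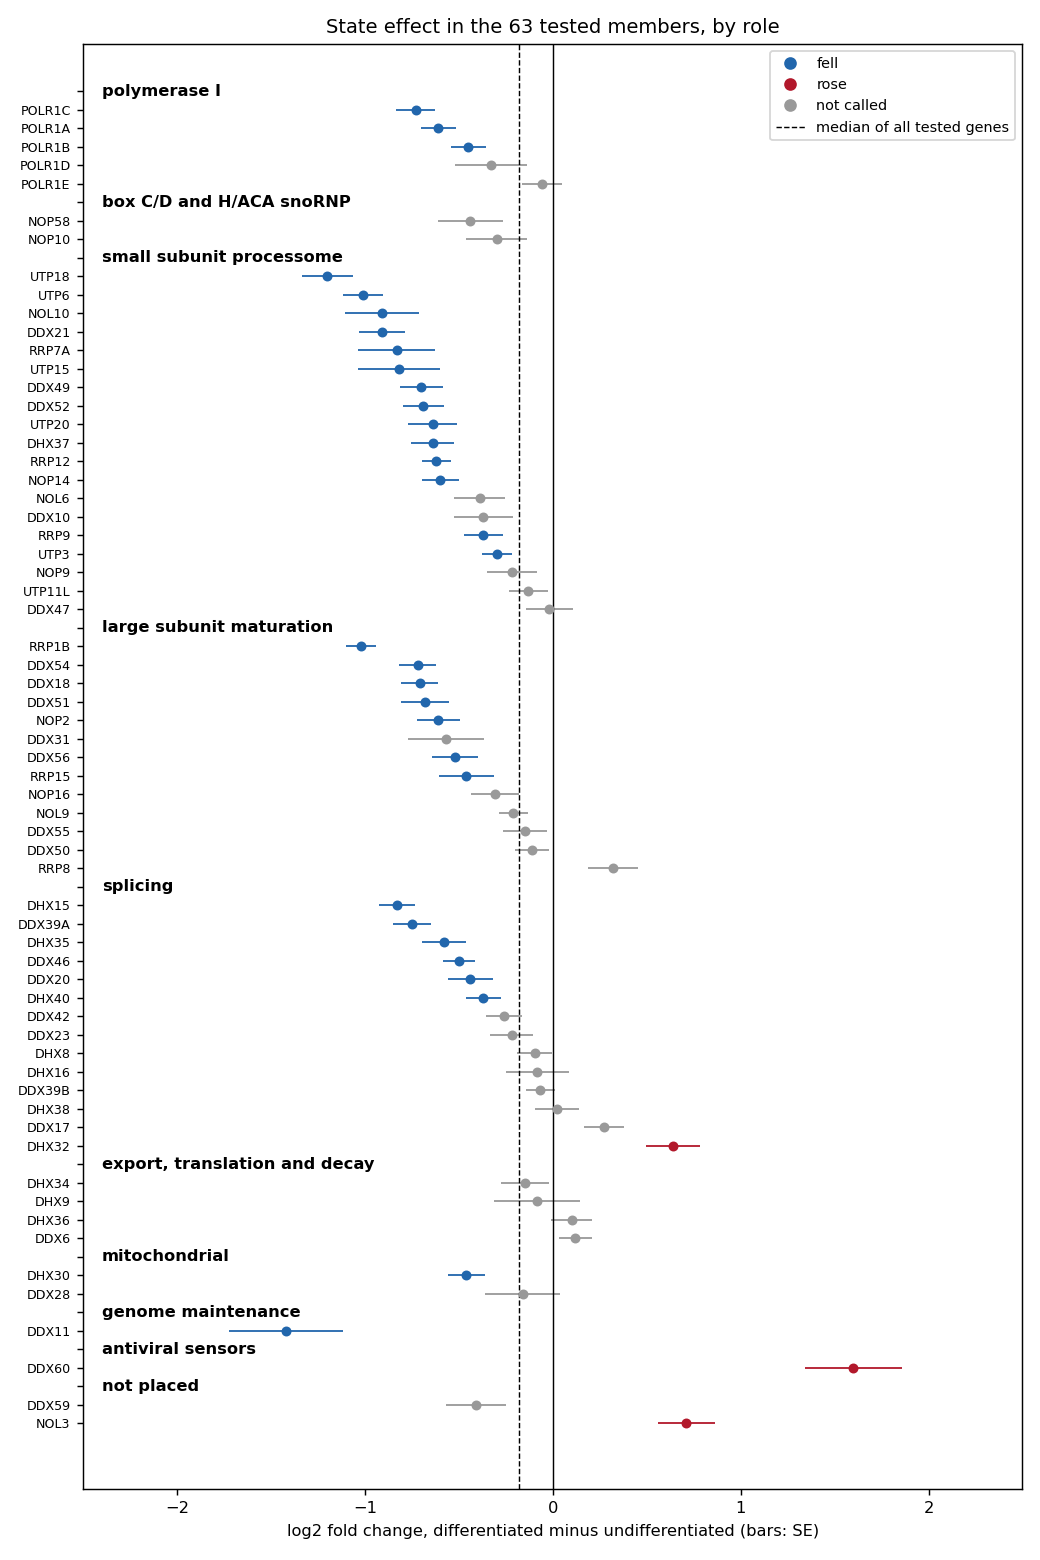
Log2 fold change on the log2(FPKM + 1) scale, differentiated minus undifferentiated, for the 63 tested members by role. Points are estimates from 4 libraries a state, bars are SE, and the dashed line is the median of all tested genes at -0.18. Most polymerase I, small subunit and large subunit points lie to the left of 0, while DDX60 lies far to the right at 1.60.

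RNA polymerase I fell in 3 of its 5 subunits in the table, POLR1A, POLR1B and POLR1C, and the median log2 fold change of the 5 was -0.45. POLR1A, the largest subunit with the catalytic centre (chromosome 3, 61529899 to 61609981, plus strand), was at 23.4, 20.8, 22.2 and 18.7 FPKM undifferentiated and at 13.8, 14.0, 13.8 and 13.0 FPKM differentiated. The lowest undifferentiated library stood above the highest differentiated one. Its mean went from 21.3 ± 2.02 to 13.6 ± 0.431 FPKM (SD, n = 4 each), a log2 fold change of -0.61 ± 0.0947 (SE, limma adjusted p = 0.00305).

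POLR1B, the second-largest subunit (chromosome 3, 45544038 to 45568052, minus strand), was at 28.0, 24.2, 25.5 and 24.7 FPKM undifferentiated and 18.1, 16.1, 19.1 and 20.7 FPKM differentiated. The states did not overlap, and the log2 fold change was -0.45 ± 0.0915 (SE, limma adjusted p = 0.00818). After median-ratio scaling it was -0.23 and no longer called (adjusted p = 0.068). POLR1C, a subunit shared with RNA polymerase III (chromosome 7, 44092580 to 44114978, plus strand), was at 9.67, 9.77, 9.55 and 8.59 FPKM against 5.87, 4.82, 4.99 and 5.37 FPKM. This was the largest fall among the 5 POLR1 members, at -0.73 ± 0.103 on the log2 scale (SE, limma adjusted p = 0.00208), again with no overlap.

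POLR1D, the partner of POLR1C in both polymerases (chromosome 11, 4679144 to 4680510, plus strand), was at 52.3, 46.4, 74.0 and 65.7 FPKM undifferentiated and 57.9, 36.7, 56.9 and 38.6 FPKM differentiated. The states overlapped, and its log2 fold change of -0.33 ± 0.191 was not called (SE, limma adjusted p = 0.2). POLR1E, a subunit specific to polymerase I (chromosome 1, 266104601 to 266125742, plus strand), was at 11, 10.2, 8.82 and 9.51 FPKM undifferentiated and 11.1, 9.53, 9.43 and 7.83 FPKM differentiated. Its log2 fold change of -0.059 ± 0.105 was not called (SE, limma adjusted p = 0.667), and it turned to 0.15 after median-ratio scaling and 0.11 after quantile normalization. Without differentiated male replicate 2 it was 0.0011.

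The snoRNP members were high in both states and neither was called. NOP58, a core protein of box C/D snoRNPs that guide methylation (chromosome 15, 117351067 to 117375010, plus strand), was at 81.4, 75.1, 91.6 and 79.1 FPKM undifferentiated and 70.2, 42.4, 71.8 and 60.2 FPKM differentiated. The states did not overlap, but the differentiated libraries ranged widely, and the log2 fold change of -0.44 ± 0.174 missed the threshold (SE, limma adjusted p = 0.0802). Without differentiated female replicate 1 it was called, at -0.62 (adjusted p = 0.0123).

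NOP10, a small protein of the box H/ACA snoRNPs that guide pseudouridylation (chromosome 7, 86158381 to 86158945, plus strand), had the highest mean of the members, 224 FPKM. Its levels were 224, 269, 197 and 288 FPKM undifferentiated and 172, 137, 268 and 236 FPKM differentiated. Both differentiated male libraries lay within the undifferentiated range while both female ones lay below it, and the averaged log2 fold change was -0.30 ± 0.16 (SE, limma adjusted p = 0.17).

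**Figure D2:**
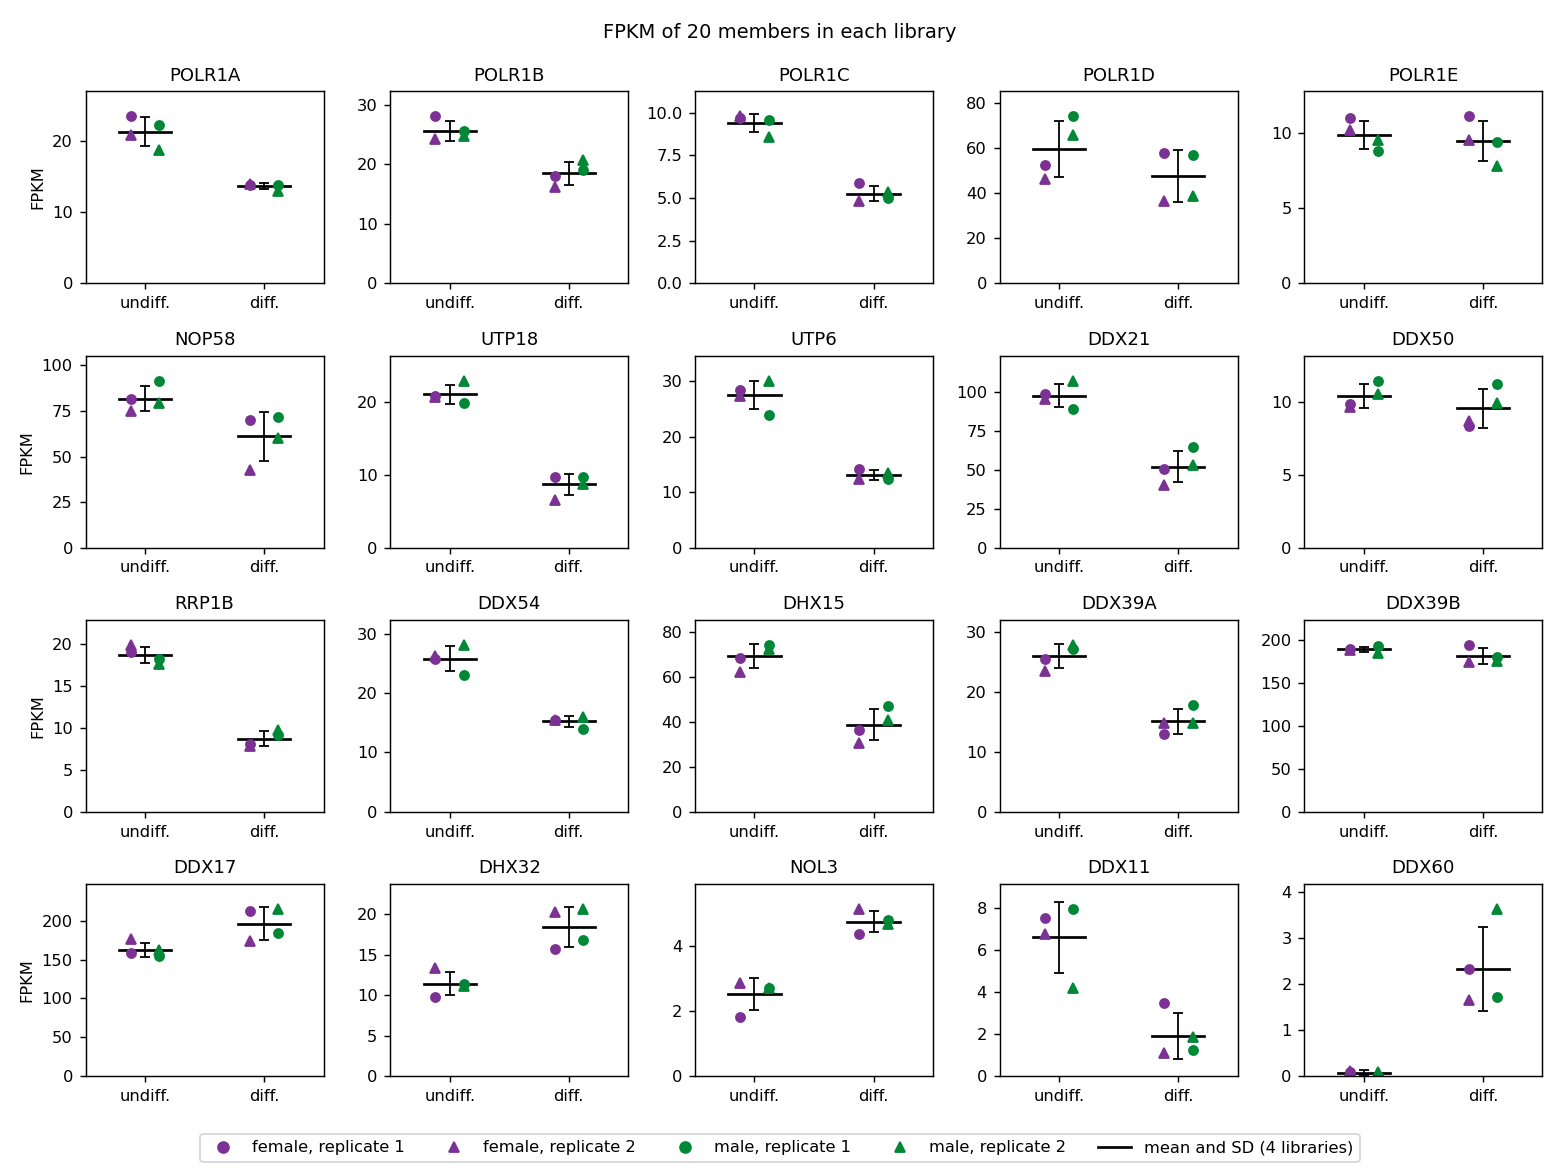
FPKM of 20 members in each of the 8 libraries, undifferentiated on the left and differentiated on the right of each panel, with each y axis starting at 0 and on its own scale. Purple marks females, green males, circles replicate 1 and triangles replicate 2, and black bars are the mean and SD of 4 libraries. UTP18, RRP1B and DHX15 show no overlap between states, whereas POLR1E, DDX50 and DDX39B overlap.

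The small subunit processome was the role group with the most falls. Of its 19 members 14 fell and none rose, where 31.9% of all tested genes fell and 18% rose. All 19 log2 fold changes lay below 0, with a median of -0.64, where 59.8% of all tested genes lay below 0. After median-ratio scaling 10 of the 19 fell, none rose and the median was -0.43. Under that scaling 22.5% of all tested genes fell and 24.8% rose. UTP18, a component of the UTP-B subcomplex (chromosome 12, 27594683 to 27633765, plus strand), was at 20.8, 20.6, 19.9 and 22.9 FPKM undifferentiated and 9.73, 6.57, 9.63 and 8.77 FPKM differentiated. The states lay well apart, and the lowest value was that of differentiated female replicate 2. The mean went from 21.1 ± 1.29 to 8.68 ± 1.47 FPKM (SD, n = 4 each), with a log2 fold change of -1.20 ± 0.135 (SE, limma adjusted p = 0.000886).

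UTP6 belongs to the same UTP-B subcomplex (chromosome 12, 44850355 to 44878534, plus strand). Its levels were 28.5, 27.4, 24.0 and 30.1 FPKM undifferentiated and 14.2, 12.3, 12.4 and 13.5 FPKM differentiated, with no overlap. The log2 fold change was -1.01 ± 0.108 (SE, limma adjusted p = 0.000741). The other UTP proteins differed in size, from UTP15 at -0.82 and UTP20 at -0.64 to UTP3 at -0.30, which all fell, and UTP11L at -0.13, which was not called.

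DDX21, a nucleolar helicase that acts both in polymerase I transcription and in precursor processing (chromosome 14, 78054376 to 78078401, plus strand), had the highest mean of the members that fell. It was at 98.7, 95.4, 88.9 and 107 FPKM undifferentiated and 50.5, 39.9, 64.6 and 52.8 FPKM differentiated. The means of 97.4 ± 7.36 and 51.9 ± 10.1 FPKM (SD, n = 4 each) gave a log2 fold change of -0.91 ± 0.123 (SE, limma adjusted p = 0.00177). Differentiated male replicate 1 was the highest of its state and still below every undifferentiated library.

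DDX50 is the close paralogue of DDX21 and lies 8114 bp from it on the same strand of chromosome 14, from 78004639 to 78046261. It was at 9.91, 9.66, 11.5 and 10.6 FPKM undifferentiated and 8.41, 8.71, 11.3 and 9.93 FPKM differentiated, with overlap and no call (log2 fold change -0.11, limma adjusted p = 0.336). The log2 difference of DDX21 minus DDX50 went from 3.11 ± 0.176 to 2.31 ± 0.17 (SD, n = 4 each), a change of -0.80. The pair was chosen after its values were seen, so this is a description with no test, and reads that match both paralogues could have been split between them.

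Other processome members that fell were NOL10 at -0.91, RRP7A at -0.83, DDX49 at -0.70, DDX52 at -0.69, DHX37 at -0.64, RRP12 at -0.62, NOP14 at -0.60 and RRP9 at -0.37 on the log2 scale. DHX37 is the DEAH helicase that releases the snoRNP of the processome, and RRP9 is a protein of that snoRNP. NOL6 at -0.39, DDX10 at -0.37 and NOP9 at -0.22 were not called. DDX47, a DEAD-box helicase of the processome (scaffold GL893509.1, 48068 to 60200, minus strand), had the smallest difference. It was at 21.4, 23.0, 21.5 and 21.9 FPKM undifferentiated and at 24.2, 19.2, 19.0 and 24.9 FPKM differentiated, so the differentiated libraries lay on both sides of the undifferentiated ones. Its log2 fold change was -0.019 ± 0.124 (SE, limma adjusted p = 0.918), and it turned to 0.20 after median-ratio scaling and 0.15 after quantile normalization. Its sign also turned without undifferentiated female replicate 2 (0.0062), differentiated female replicate 2 (0.062) or differentiated male replicate 1 (0.075).

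Among the 14 processome falls, 4 did not hold under every alternative run. After median-ratio scaling the adjusted p from limma was 0.0523 for RRP7A, 0.0506 for UTP15, 0.198 for RRP9 and 0.401 for UTP3. After quantile normalization the RRP9 and UTP3 calls ended too, at 0.108 and 0.221, and that of RRP9 ended with no filter, at 0.0592. The call of RRP7A also ended on leaving out undifferentiated female replicate 1, male replicate 2 of the same state or differentiated female replicate 2, at adjusted p of 0.0572, 0.0531 and 0.0601. That of UTP15 ended on leaving out replicate 1 of either undifferentiated sex (0.0747 for the female, 0.0721 for the male) or replicate 2 of either differentiated sex (0.0566 for the female, 0.0615 for the male). The RRP9 call ended without any 1 of the libraries other than differentiated female replicate 1 and differentiated male replicate 2, at adjusted p from 0.054 to 0.0815. The UTP3 call ended without any 1 of the libraries other than undifferentiated male replicate 2 and differentiated male replicate 1, at adjusted p from 0.0501 to 0.0712. NOL6 was called without differentiated male replicate 1 (-0.50, adjusted p = 0.025) and DDX10 without undifferentiated female replicate 2 (-0.50, adjusted p = 0.0446).

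Large subunit factors fell in 7 of 13 members, with a median log2 fold change of -0.52, where 31.9% of all tested genes fell. After median-ratio scaling 5 fell, 1 rose and the median was -0.30, where 22.5% of all tested genes fell and 24.8% rose. RRP1B, a nucleolar protein of large subunit maturation (chromosome 13, 216628848 to 216647523, minus strand), led the group. It was at 19.1, 19.9, 18.2 and 17.6 FPKM undifferentiated and 8.12, 7.87, 9.11 and 9.77 FPKM differentiated. The states were far apart relative to the spread within them. The mean went from 18.7 ± 1.03 to 8.72 ± 0.883 FPKM (SD, n = 4 each), with a log2 fold change of -1.02 ± 0.0796 (SE, limma adjusted p = 0.000261), the lowest adjusted p of the tested members.

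The DEAD-box helicases DDX54 at -0.72, DDX18 at -0.71, DDX51 at -0.68 and DDX56 at -0.52 also fell. So did NOP2, a methyltransferase of large subunit rRNA, at -0.61, and RRP15 at -0.46. DDX31 at -0.57, NOP16 at -0.31, NOL9 at -0.21 and DDX55 at -0.15 on the log2 scale were not called, although all differentiated libraries lay below all undifferentiated ones for DDX31 and NOL9. RRP8, which methylates a base of large subunit rRNA (chromosome 9, 3810355 to 3819407, plus strand), was the member of this group with a log2 fold change above 0. It was at 8.79, 9.13, 7.75 and 9.01 FPKM undifferentiated and 10.9, 12.6, 8.84 and 12.5 FPKM differentiated. Differentiated male replicate 1 alone lay within the undifferentiated range. The log2 fold change of 0.32 ± 0.134 was not called (SE, limma adjusted p = 0.0892), but was without that library (0.44, adjusted p = 0.0299), after median-ratio scaling (0.53, 0.0252) and after quantile normalization (0.49, 0.0336).

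Of the 7 falls, those of DDX56 and RRP15 ended after median-ratio scaling, at limma adjusted p of 0.0617 and 0.216, and RRP15 also lost its call after quantile normalization (0.163) and with no filter (0.058). RRP15 was at 18.1, 17.3, 19.3 and 19.2 FPKM undifferentiated and 11.2, 11.9, 18.6 and 11.9 FPKM differentiated, the 1 called member whose states overlapped. Its call ended without any 1 of the libraries other than differentiated male replicates 1 and 2, at adjusted p from 0.0815 to 0.104. Without differentiated female replicate 1, DDX31 (-0.79, adjusted p = 0.00569) and NOP16 (-0.44, adjusted p = 0.0173) were called.

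Splicing members were mixed, with 6 of 14 falling, 1 rising and a median log2 fold change of -0.24, where 31.9% of all tested genes fell and 18% rose. After median-ratio scaling 4 fell, 2 rose and the median was -0.02, where 22.5% of all tested genes fell and 24.8% rose. DHX15, the helicase that takes the spliceosome apart and that also works in ribosome assembly (chromosome 8, 18853594 to 18911270, minus strand), was at 68.4, 62.5, 74.4 and 72.8 FPKM undifferentiated and 36.6, 30.8, 47.4 and 40.9 FPKM differentiated. The states did not overlap. The mean went from 69.5 ± 5.31 to 38.9 ± 7.01 FPKM (SD, n = 4 each), a log2 fold change of -0.83 ± 0.0969 (SE, limma adjusted p = 0.00101).

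DDX39A and DDX39B are near-identical helicases of mRNA splicing and export. DDX39A (chromosome 2, 65113350 to 65124530, minus strand) was at 25.4, 23.5, 27.2 and 27.8 FPKM undifferentiated and 12.9, 14.8, 17.8 and 14.8 FPKM differentiated, and fell by 0.75 ± 0.0988 on the log2 scale (SE, limma adjusted p = 0.00157). DDX39B (chromosome 7, 27582996 to 27593980, plus strand) was at 189, 188, 193 and 185 FPKM undifferentiated and 194, 174, 180 and 175 FPKM differentiated, with overlap and no call. Its log2 fold change was -0.067 ± 0.0766 (SE, limma adjusted p = 0.497), and turned to 0.16 after median-ratio scaling and 0.05 after quantile normalization. The log2 difference of DDX39A minus DDX39B went from -2.82 ± 0.11 to -3.50 ± 0.225 (SD, n = 4 each), a change of -0.69. This pair too was chosen after its values were seen and is given with no test, and reads shared by it could likewise have been split.

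DDX17, a helicase known as a coregulator of MYOD1 as well as a splicing factor (chromosome 5, 6766421 to 6783784, plus strand), was at 158, 176, 155 and 162 FPKM undifferentiated and 213, 174, 184 and 215 FPKM differentiated. Differentiated female replicate 2 lay just inside the undifferentiated range. The log2 fold change of 0.27 ± 0.106 was not called (SE, limma adjusted p = 0.0817), but it was after median-ratio scaling (0.49, adjusted p = 0.00805) and quantile normalization (0.37, adjusted p = 0.0478). DHX32, a DEAH-box protein placed here by its family (chromosome 14, 146772898 to 146827264, minus strand), was at 9.79, 13.3, 11.4 and 11.1 FPKM undifferentiated and 15.7, 20.3, 16.8 and 20.6 FPKM differentiated. All differentiated libraries were above all undifferentiated ones, and DHX32 rose by 0.64 ± 0.143 on the log2 scale (SE, limma adjusted p = 0.0118).

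DHX35 at -0.58, DDX46 at -0.50, DDX20 at -0.44 and DHX40 at -0.37 fell. DDX46 acts with the U2 snRNP in spliceosome assembly, and DDX20 is part of the SMN complex that loads Sm proteins onto snRNAs. DDX42 at -0.26, DDX23 at -0.22, DHX8 at -0.096, DHX16 at -0.082 and DHX38 at 0.023 on the log2 scale were not called. The last 4 are helicases of the catalytic steps of splicing or of the steps that lead to and from them. The calls of DDX20 and DHX40 ended after median-ratio scaling (limma adjusted p = 0.212 and 0.206) and quantile normalization (0.17 and 0.128). The DDX20 call also ended without any 1 of the libraries other than undifferentiated male replicate 1 and differentiated male replicate 2, at adjusted p from 0.0517 to 0.0782. That of DHX40 ended on leaving out undifferentiated female replicate 1, male replicate 2 of the same state or differentiated female replicate 2, at 0.0657, 0.06 and 0.0579. DDX42 was called without differentiated male replicate 2 (-0.32, adjusted p = 0.0443).

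Among the 4 members of export, translation and decay none was called. After median-ratio scaling 2 were called as rising, where 24.8% of all tested genes rose. DDX6, a helicase of P-bodies that represses translation and promotes decapping (chromosome 9, 51060166 to 51098787, minus strand), was at 70.5, 66.8, 70.9 and 65.7 FPKM undifferentiated and 68.8, 58.5, 87.1 and 87.2 FPKM differentiated. Both differentiated male libraries were above, and 1 of the female ones below, the undifferentiated range. Its log2 fold change was 0.12 ± 0.0858 (SE, limma adjusted p = 0.293), and 0.34 after median-ratio scaling (adjusted p = 0.0106). DHX36, which unwinds G-quadruplexes, had 0.10, and 0.33 after that scaling (adjusted p = 0.04). DHX34, a factor of nonsense-mediated decay (chromosome 6, 48557154 to 48587375, plus strand), was at 11.2, 9.62, 10.3 and 9.95 FPKM undifferentiated and 8.70, 7.26, 9 and 12.1 FPKM differentiated, with a log2 fold change of -0.15 (limma adjusted p = 0.355). DHX9 lay between 1.26 and 2.41 FPKM in all libraries, on a gene model of 7205 bp, and was not called.

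Of the mitochondrial members, DHX30, a helicase of mitochondrial ribosome assembly (chromosome 13, 33893740 to 33908861, plus strand), fell. It was at 24.1, 21.2, 23.6 and 24.5 FPKM undifferentiated and 19.4, 16.0, 15.8 and 15.7 FPKM differentiated, without overlap, a log2 fold change of -0.46 ± 0.0974 (SE, limma adjusted p = 0.00963). The call ended after median-ratio scaling (-0.24, adjusted p = 0.0685). DDX28, which acts on the mitochondrial large subunit (chromosome 6, 26002100 to 26003722, plus strand), was at 3.32, 4.41, 3.88 and 6.89 FPKM against 3.40, 4.45, 3.64 and 4.17 FPKM and was not called (-0.16, limma adjusted p = 0.529).

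DDX11 is a DNA helicase of sister chromatid cohesion rather than an RNA helicase (chromosome 5, 69679985 to 69686586, minus strand), and it had the largest fall of the tested members. It was at 7.49, 6.74, 7.93 and 4.19 FPKM undifferentiated and 3.49, 1.09, 1.23 and 1.87 FPKM differentiated. The states did not overlap, with means of 6.59 ± 1.67 and 1.92 ± 1.10 FPKM (SD, n = 4 each). The log2 fold change was -1.42 ± 0.305 (SE, limma adjusted p = 0.0104).

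DDX60, an interferon-induced factor of antiviral defence (chromosome 14, 22292407 to 22365368, minus strand), had the largest difference upwards. It was at 0.0901, 0.118, 0 and 0.0816 FPKM undifferentiated and 2.33, 1.65, 1.73 and 3.63 FPKM differentiated. The states did not overlap, and the gene passed the filter on low values only through the differentiated state. The difference was 1.60 on the log2(FPKM + 1) scale, and 3.81 with a pseudocount of 0.1. Since a gene that passes in this way had to differ, these values are a description and no test is given. Without differentiated male replicate 2 its mean fell under the filter and it was not tested. Among interferon response genes, IFIT2 rose by 0.87 on the log2(FPKM + 1) scale. IFIT3 went from a mean of 0.922 to 7.43 FPKM, a difference of 2.15 on that scale. Like DDX60 it passed the filter only through the differentiated state, so its values too are a description. Other genes of that list are not described. The part of an interferon response in the level of DDX60 was not tested.

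NOL3 carries a nucleolar protein symbol but is described in the table as an apoptosis repressor with a CARD domain, a protein known from heart and skeletal muscle. At chromosome 6, 25074671 to 25083203, minus strand, it was at 1.80, 2.87, 2.71 and 2.70 FPKM undifferentiated and 4.35, 5.12, 4.78 and 4.68 FPKM differentiated. The states did not overlap, and it rose by 0.71 ± 0.151 on the log2 scale (SE, limma adjusted p = 0.0096). DDX59 (chromosome 10, 27675580 to 27699802, minus strand) was at 3.13, 3.69, 3.93 and 5.07 FPKM against 2.2, 2.3, 2.63 and 3.86 FPKM. It was not called (-0.41, limma adjusted p = 0.0762), but was without differentiated male replicate 2 (-0.52, adjusted p = 0.049).

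The 4 members under the filter were DDX43 and DDX4, helicases of germ cells, DHX58, a regulator of cytosolic RNA sensing, and NOL4. DDX43 was listed at 0 in all 8 libraries. DDX4 was listed at 0 in all but undifferentiated male replicate 2, at 0.587 FPKM. DHX58 and NOL4 stayed under 1 FPKM in every library.

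Of the 35 called members, 22 that fell, and DHX32 and NOL3 among those that rose, kept their call and direction in all alternatives in which they were tested. None of the 35 turned direction. Taking the median over the 63 tested members of each library's log2 value minus the mean of the 8 libraries, the undifferentiated libraries were at 0.222, 0.145, 0.209 and 0.225. The differentiated ones were at -0.125, -0.341, -0.163 and -0.209. Differentiated female replicate 2 was the lowest and held the lowest differentiated value for 33 members, or 52.4%, where 33.6% of all tested genes had theirs in it. Without it 25 members fell and the member median was -0.36. Over all tested genes 3496 of 12903 then fell, against 4137 of 12963 with all 8 libraries.

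Proliferation genes also fell in differentiated cultures. All 9 tested genes of that list fell, where 31.9% of all tested genes did, and their median log2 fold change was -2.27. Their sum was 396 to 599 FPKM undifferentiated and 65.1 to 150 FPKM differentiated. Differentiated male replicate 1 was their highest differentiated library, at -0.438 by the same library measure, against -1.34, -1.56 and -1.37 in the others. The member median of that library, -0.163, lay between those of the other differentiated libraries, and it held the highest differentiated value for 27% of members and 29.7% of all tested genes. Without it, 31 members fell and 4 rose, where 3795 of all 12874 tested genes fell and 2180 rose. The part of proliferating cells in the fall of the members was not tested.

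**Figure D3:**
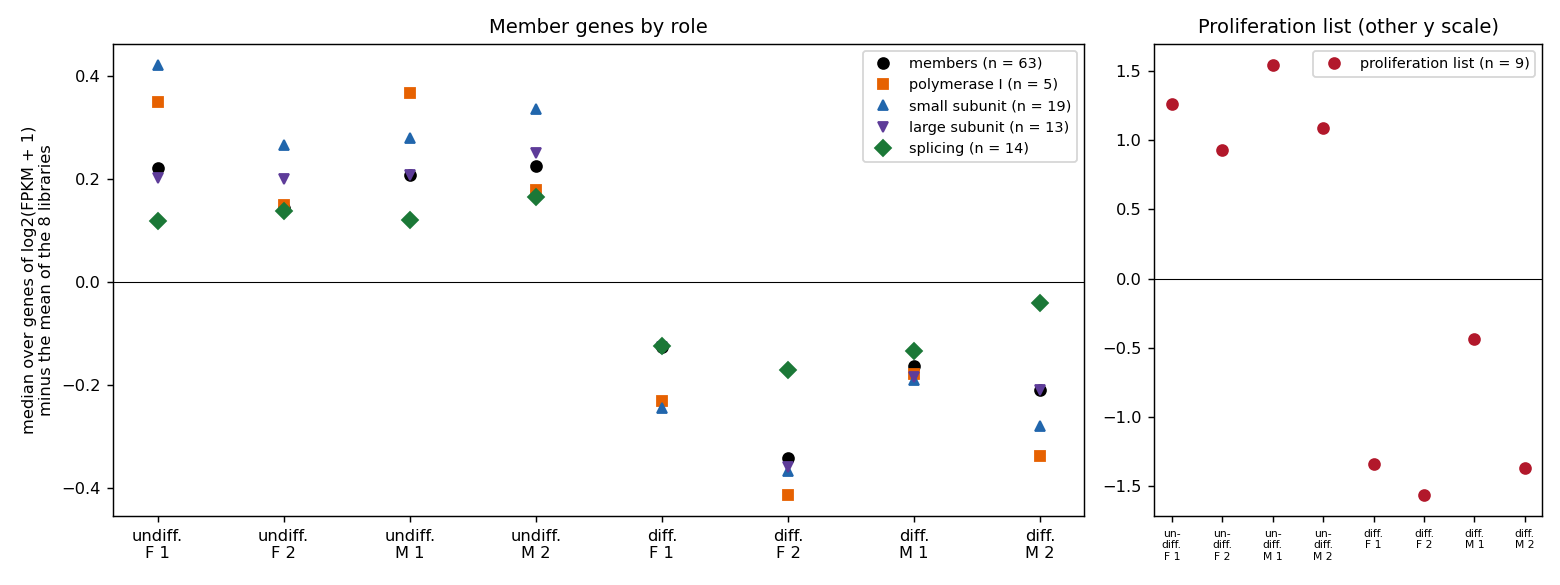
Median over genes of log2(FPKM + 1) minus the mean of the 8 libraries, per library, for the members and their larger role groups (left) and for 9 proliferation genes (right, other y scale), with F and M for females and males and the replicate number. All member medians lie above 0 in undifferentiated and below 0 in differentiated libraries, with the median of the 63 members lowest in differentiated female replicate 2 at -0.341, whereas the proliferation list is highest among differentiated libraries in male replicate 1.

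The sexes were compared next. None of the 63 members was called between females and males by limma, where 0.0849% of all tested genes were. At an unadjusted p under 0.05 there were 5 members, or 7.94%, against 9.73% of all tested genes. Log2 differences, female minus male, ran from -0.34 to 0.37, and the lowest adjusted p was 0.49.

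The effect of the state did not pass the test for a difference between the sexes in any member, where 0.0231% of all tested genes did. By limma, 1 member, DDX6, had an unadjusted p under 0.05 (adjusted p = 0.808). The differences of the effect, female minus male, ran from -0.76 for NOP10 to 0.47 for POLR1D on the log2 scale. With 2 libraries in each group this comparison had little precision, as the SE of 0.319 for NOP10 shows.

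The rest of the pathway was read from lists of genes outside the rule. Of 91 tested ribosome biogenesis factors, 59 fell and 1 rose, with a median log2 fold change of -0.53, where 31.9% of all tested genes fell. After median-ratio scaling 38 fell and 5 rose, with a median of -0.32, where 22.5% of all tested genes fell and 24.8% rose. By role, 22 of 29 small subunit factors, 27 of 40 large subunit factors, 5 of 10 snoRNP factors and 5 of 12 polymerase I factors fell. After the scaling the falls were 13, 17, 4 and 4 in the same order. The median of the polymerase I factors was then -0.07, near the 0.02 of all tested genes, and 1 of them rose. MYC and BAZ2A are counted among the polymerase I factors, and both fell with FPKM as deposited. NPM1, an abundant nucleolar chaperone, went from 902 ± 53.1 to 429 ± 55.2 FPKM (SD, n = 4 each; log2 fold change -1.08, limma adjusted p = 0.000638). FBL, the methyltransferase that sits with NOP58 in box C/D snoRNPs, went from 50.4 ± 4.29 to 27.2 ± 2.97 FPKM (-0.87, adjusted p = 0.00177).

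MYC, a transcription factor known to act on many ribosome biogenesis genes, went from 161 ± 30.1 to 45.3 ± 7.45 FPKM (SD, n = 4 each; log2 fold change -1.80, limma adjusted p = 0.000479). The polymerase I factors TAF1B (-1.23) and TAF1C (-1.26) fell, while UBTF (-0.28, adjusted p = 0.107) and RRN3 (0.22, adjusted p = 0.145) were not called. SBDS, which helps release a factor from the new large subunit, rose by 0.35 (adjusted p = 0.02). That call ended when replicate 1 of the undifferentiated females, of the undifferentiated males or of the differentiated males was left out, and 0 factors then rose. GAR1 was listed at 0 in every library.

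The list of exosome and related 3-prime processing genes holds the subunits of the exosome, a nuclease complex that trims rRNA precursors, together with other nucleases such as PARN, XRN2 and ERI1. Of its 17 tested genes 6 fell, none rose and the median was -0.20, near the 31.9% of falls and the median of -0.18 of all tested genes. MPP6 is counted there, but the table describes that symbol as a palmitoylated membrane protein, and without it 5 of 16 fell. Of 19 tested genes in the list of RNA helicases outside the DDX and DHX names, 8 fell and 3 rose, with a median of -0.21. Of all tested genes 31.9% fell and 18% rose, and the median was -0.18. FANCM (-0.85), which acts on DNA rather than RNA, is counted among the 8 falls. EIF4A1, the main helicase of translation initiation, went from 196 ± 12.9 to 85.0 ± 11.4 FPKM (SD, n = 4 each; log2 fold change -1.20, limma adjusted p = 0.00029), whereas its paralogue EIF4A2 rose by 0.60. MOV10 (-1.56) and ASCC3 (-1.05) fell and HELZ (0.82) rose. The count of 8 falls was 4 without undifferentiated female replicate 2 and 5 without undifferentiated male replicate 1 or 2. Over all tested genes 3426 of 13006, 3382 of 13004 and 3536 of 12999 fell in the same order, against 4137 of 12963 with all 8 libraries.

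**Figure D4:**
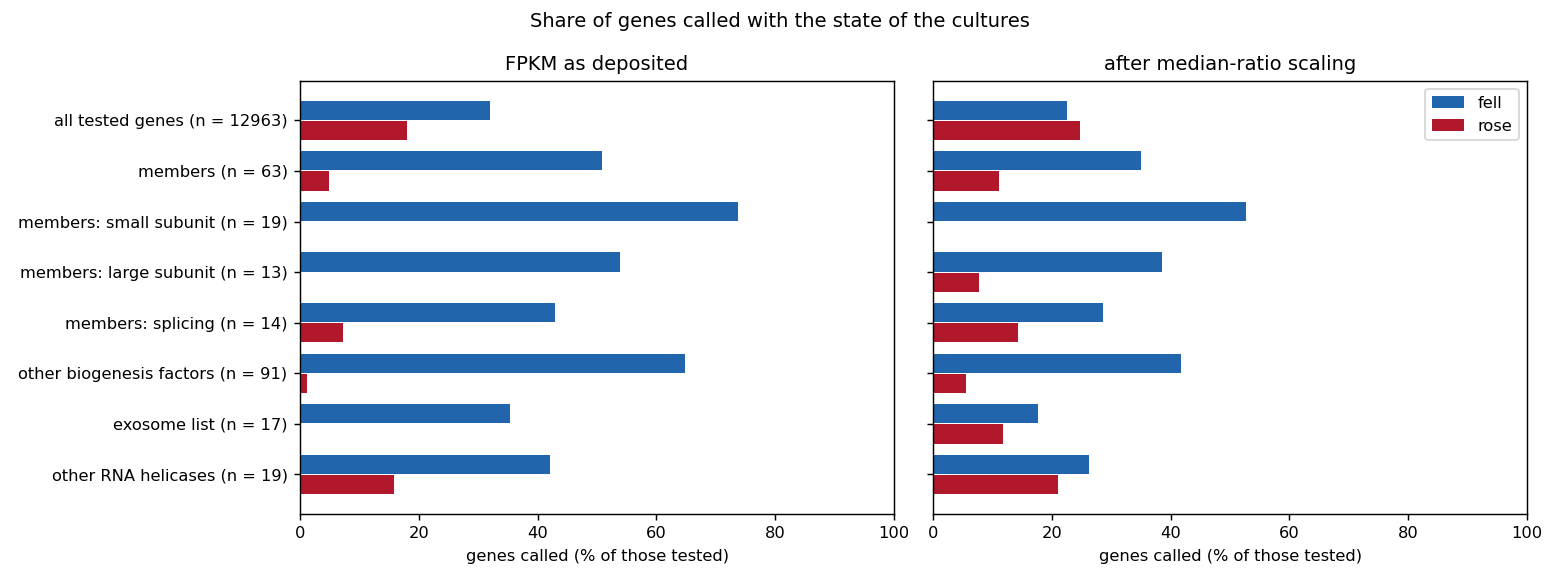
Percent of tested genes called as falling (blue) or rising (red) in differentiated cultures, for all tested genes, the members, their larger role groups and the lists outside the rule, from FPKM as deposited (left) and after median-ratio scaling (right). On the left 50.8% of members fell against 31.9% of all tested genes, and after scaling 22 of 63 fell against 22.5%.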

How the data were processed

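The authors deposited 1 table of FPKM per gene for the 8 libraries. Per the submitters' processing notes the tools were cutadapt (1.6), TopHat2 (2.0.12.1) and Cufflinks (2.2.1), and the build was Sscrofa10.2. Per the labels' protocols, a stranded total RNA kit was used with 100-bp paired ends. The labels give the molecule, however, as polyA RNA. Whether counting used strand, and the scaling total, are not given in the sources used here.

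Values were taken as log2(FPKM + 1), and genes whose mean reached 1 FPKM were tested with limma 3.58.1 in R 4.3.3 (lmFit, contrasts.fit, eBayes with trend, 1 mean per group). Two-sided p-values were adjusted over 12963 genes by Benjamini-Hochberg, with 0.05 as threshold. The script was checked on simulated data. Symbols were matched exactly. Members, lists, tests and alternatives were chosen with earlier results of these data known.

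Values in every library were given for the members with the lowest and highest log2 fold change of each role group, all POLR1 genes, all tested antiviral sensors and the 5 members of highest mean. UTP6, DDX50, DDX39A and RRP15 were added after their values were seen.

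The alternatives tried were no filter, a filter at a mean of 5 FPKM, a pseudocount of 0.1, median-ratio scaling, quantile normalization, leaving out genes under 300 bp, 2 states without sex, a replicate block and leaving out each library. Chosen after seeing the data were the addition of family genes named by the identifier table and the removal of MPP6. Whole reads were not recovered from FPKM, so no count model was used. Part of the interferon response list is not reported here. A planned search of promoter and protein motifs was not run.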

Additional observations from a re-analysis of the deposited data

Results flagged for a closer look

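For 5 of the 126 groups of 4 libraries of 1 state examined, 1 library stood far from the other 3, more so than Dixon's 95% critical value allows. This is 3.97% of the groups, where chance gives about 5%. DHX30 was at 19.4 FPKM in differentiated female replicate 1, with 16.0, 15.8 and 15.7 FPKM in the other differentiated libraries. DHX36 was at 25.1 FPKM in differentiated female replicate 2, with 30.0, 29.8 and 30.3 FPKM in the others. NOL6 was at 11.4 FPKM in differentiated male replicate 1, with 8.09, 7.61 and 8.15 FPKM in the others. RRP15 was at 18.6 FPKM in that library, with 11.2, 11.9 and 11.9 FPKM in the others. Among undifferentiated libraries, NOL3 was at 1.80 FPKM in female replicate 1, with 2.87, 2.71 and 2.70 FPKM in the others.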

How the results depend on the processing

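Under median-ratio scaling and quantile normalization, in this order, 7 and 5 members rose, the member median was -0.21 and -0.25, and 5 and 4 biogenesis factors outside the rule rose. Under both, 5 of the other RNA helicases fell. Under median-ratio scaling 38 biogenesis factors and 3 exosome genes fell and 2 exosome genes rose. The shares of all tested genes under that scaling were 22.5% falling and 24.8% rising. Under quantile normalization 3302 of all 12963 tested genes fell and 2699 rose. With a mean of at least 5 FPKM, 1 member rose, because NOL3 and DDX60 were not tested. Leaving out 1 library at a time gave 25 to 32 members that fell, 2 to 4 that rose, and a member median of -0.47 to -0.36. It gave 0 to 1 biogenesis factors that rose, 40 to 57 that fell, and 4 to 8 other helicases that fell. Fewer genes were called over the whole table as well. With 1 library left out, 3311 to 3808 of all tested genes fell and 1909 to 2180 rose, from 12851 to 13042 tested. With all 8 libraries 4137 of 12963 fell and 2339 rose.

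No called member turned direction. Under median-ratio scaling the log2 fold change turned positive for DDX23 (0.0016), DDX28 (0.023), DDX39B (0.16), DDX47 (0.20), DDX50 (0.095), DDX55 (0.058), DHX16 (0.13), DHX34 (0.054), DHX8 (0.12), DHX9 (0.057), NOL9 (0.0088), POLR1E (0.15) and UTP11L (0.095). Under quantile normalization it did so for DDX39B (0.045), DDX47 (0.15), DDX50 (0.055), DDX55 (0.02), DHX16 (0.092), DHX34 (0.017), DHX8 (0.077), POLR1E (0.11) and UTP11L (0.046). With 1 library left out the value ranged across 0 for DDX28 (-0.34 to 0.012), DDX47 (-0.11 to 0.075), DHX16 (-0.25 to 0.087), DHX38 (-0.039 to 0.086), DHX9 (-0.23 to 0.062) and POLR1E (-0.12 to 0.0011). Apart from the filter, the cause of these shifts was not tested.

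Libraries that share a number did not deviate together (r = 0.0684 in females and -0.0264 in males), so the numbers were not taken as pairs. With the replicate block 31 members fell and 3 rose, and 2 biogenesis factors rose, where 3948 of all 12963 tested genes fell and 2206 rose. Under it RRP15 (limma adjusted p = 0.0534), RRP9 (0.0694) and UTP3 (0.0556) were not called, while NOL6 (0.0372) and DDX10 (0.0499) were. With 2 states and no sex in the fit, DDX31 (0.0294), DDX42 (0.0497) and NOL6 (0.0446) were called. So were NOL6 (0.0485) and NOL9 (0.04) with a mean of at least 5 FPKM, and DDX31 (0.0487) without genes under 300 bp. No member was called for sex or for the difference of the effect between the sexes under any alternative in which that contrast was run. The read depth is unknown, and 2 libraries a group limit the precision.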

Other observations

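Family genes that carry no symbol in the deposited table but are named by an identifier table add 2 partners of members described above. NOP56, the partner of NOP58 in box C/D snoRNPs, was at only 1.24 ± 0.159 FPKM undifferentiated and 0.836 ± 0.159 FPKM differentiated (SD, n = 4 each), and it was not called (log2 fold change -0.29, limma adjusted p = 0.268). POLR1F, a further subunit of RNA polymerase I, was at 3.28 ± 0.645 and 3.22 ± 0.206 FPKM and was not called either (-0.0078, limma adjusted p = 0.971). Of the 4 genes in this set that fell, DDX24 and DDX27 are helicases of the large subunit. DDX24 went from 7.82 ± 1.12 to 5.06 ± 0.538 FPKM (-0.54, limma adjusted p = 0.0189), and DDX27 had a log2 fold change of -0.52 (adjusted p = 0.0188). DDX1, an RNA helicase of tRNA ligation, was at 44.6 ± 3.69 and 39.2 ± 5.13 FPKM and was not called (-0.19, adjusted p = 0.192).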
